A study of Mus musculus with 17 samples.

Results

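Bronchoalveolar lavage cells of A/J mice, washed from the airways and air spaces, were compared between mice given urethane and untreated control mice on the 10 arrays whose label carried a number of 31 or higher, out of 17 arrays in the series. The arrays were chosen by that number alone: urethane arrays 31, 32, 33, 34, 35 and 36, and control arrays 33, 35, 36 and 37. All 10 samples were from the inbred A/J strain, which is prone to lung tumours. The controls were untreated and matched for age to the treated mice. Dose, time after treatment, the age itself and sex are not given in the sources used here, nor do they say whether 1 number stands for 1 mouse. The p-values below thus describe only how far these arrays scatter, which may in part be technical. One label field describes the samples as lung tissue, whereas the source and title fields give lavage cells. The other 7 arrays (5 urethane and 2 control, numbers below 31, of which 1 control carries a pair of numbers) were on another chip lot and scan day, and serve here only to show where the 2 number ranges differ.

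Urethane (ethyl carbamate) is a carcinogen that is converted in the body to DNA-reactive products and gives lung adenomas in A/J mice. Lavage of an untreated mouse lung yields mostly alveolar macrophages, long-lived cells that clear surfactant lipid and inhaled particles and depend on GM-CSF and the nuclear receptor Pparg. The lavage may also carry lymphocytes, neutrophils, monocyte-derived macrophages and shed airway epithelial cells, and the array reads the RNA of all of them together. For any marker gene, fewer cells of a type and less RNA per cell therefore cannot be told apart.

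Each value is an Affymetrix MAS5 signal on which the authors' scaling was kept (trimmed mean 500 on every array), put on a log2 scale after adding a pseudocount of 19.2. Of the 20 alveolar macrophage markers on the array all 20 were tested. The macrophage genes Cd68, Csf1r, Mrc1, Marco, Chil3, Ptprc, Itgax, Siglecf, Fabp4 and Pparg were all brighter than the 40th percentile of probe sets on each of the 10 arrays, in both groups. That level is low and does not by itself give the share of macrophages. The number of arrays limits the precision. Chip lot and scan day were shared by the 10 arrays, but the 4 controls had been washed in the first fluidics run and scanned before the 6 urethane arrays, so wash run and scan order cannot be told apart from treatment. The 20th percentile signal was 66.2, 41.8 and 35 on urethane arrays 33, 36 and 35, against 14.4 to 17.6 on the other urethane arrays and 17.1 to 28.4 on the controls. The group difference of its log2 value was 0.40 (exact permutation test over arrays, two-sided, p = 0.44, where the smallest possible p is 0.0048). The beta-actin 3' to 5' signal ratio was 1.123 to 1.203 on urethane arrays and 1.059 to 1.195 on controls (same test, p = 0.052). Controls 33, 35 and 36 lay below every urethane array, and control 37 lay among the urethane arrays. The same ratio for Gapdh gave p = 0.71 by this test. The part of the beta-actin ratio in the calls was not tested. Control 36 correlated best with a urethane array (urethane 32, r = 0.967). It was the highest control for 212 of the 320 genes called higher and the lowest control for 154 of the 329 genes called lower, while control 37 was the highest for 86 and the lowest for 145.

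Urethane and control lavage cells differed most in a small set of genes with very large rises (Bex1, Fstl1 and Arnt2) and in a set of falls led by the ectonucleotidase Nt5e and the peroxisomal thiolase Acaa1b. At an adjusted p under 0.05 (limma, Benjamini-Hochberg over 13264 genes) 649 genes were called, 4.89% of those tested. Of these 320 (2.41%) were higher and 329 (2.48%) lower in urethane arrays. Those 2 shares are the background for the list counts below. By size, 278 of the rises and 237 of the falls were at least 1.5-fold, and 166 rises and 79 falls were at least 2-fold. The groups of arrays did not overlap for 763 genes (5.75%), of which 310 were higher and 453 lower in urethane arrays. The count of calls was 233 without control 35, 256 without control 33 and 370 without urethane 35, and lay between 487 and 959 when any other single array was left out. Without control 36 it was 769, with 573 of the 649 genes among them.

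**Figure D1:**
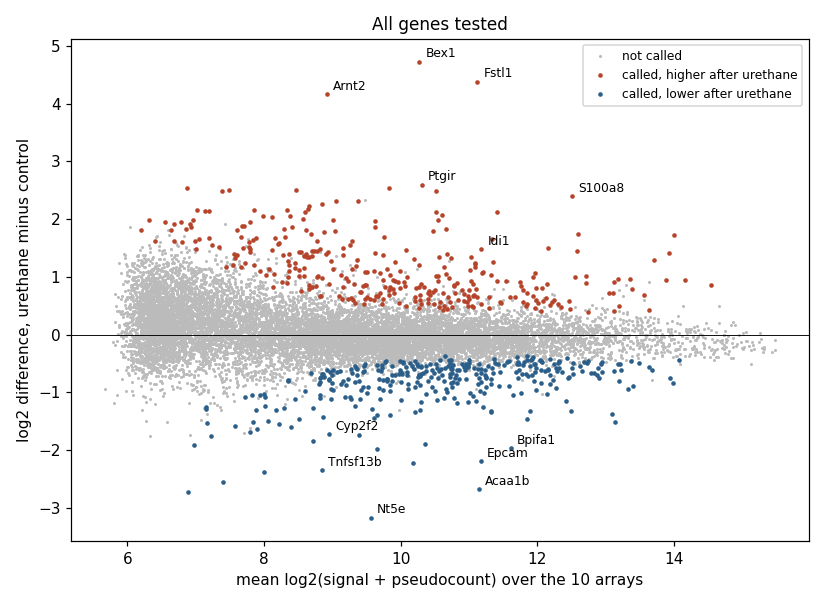
Log2 difference between urethane and control arrays (y axis) against the mean log2 signal over the 10 arrays (x axis) for all 13264 genes tested; red and blue points are the 320 genes called higher and the 329 called lower. Bex1, Fstl1 and Arnt2 stand apart from all other rises at log2 differences of 4.73, 4.38 and 4.16.

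Bex1, a small brain-expressed X-linked adaptor protein, had a log2 signal of 11.09 at the lowest, 12.23 at the median and 13.03 at the highest over the urethane arrays, against 6.12, 6.29, 9.98 and 7.36 in controls 33, 35, 36 and 37. Every urethane array lay above every control, and control 36 lay between the groups. The difference was 4.73 (SE 0.58, limma adjusted p = 0.00024), and 5.57 without control 36; only 2 of the 4 controls exceeded the 40th percentile of their array, so the size of the difference is uncertain. Fstl1 encodes a secreted follistatin-like glycoprotein that binds ligands of the TGF-beta family. It had 12.38, 12.89 and 13.54 (lowest, median, highest) in urethane arrays, against 7.12, 6.76, 10.84 and 9.24 in controls 33, 35, 36 and 37, a difference of 4.38 (SE 0.56, adjusted p = 0.00031). Its 2 probe sets gave differences of 4.38 and 4.56. Arnt2, a bHLH-PAS transcription factor that pairs with other members of its family, had 10.12, 10.55 and 11.45 in urethane arrays, against 6.10, 5.01, 9.32 and 5.27 in controls 33, 35, 36 and 37. The difference was 4.16 (SE 0.60, adjusted p = 0.00081), although its 3 probe sets ran from 0.54 to 4.16 and only 1 of the 4 controls exceeded the 40th percentile of its array. Of the genes described below, Myrf and Tlr1 also exceeded it in only 2 of the 4 controls and Cd3d in 1. The filter kept probe sets above that percentile on at least 4 of the 10 arrays. Bex1, Arnt2, Myrf, Tlr1 and Cd3d passed it only with urethane arrays, where they were high. Their calls are thus not separate from the filter. Fstl1 is also expressed by fibroblasts, and it was the only 1 of 7 tested fibroblast and smooth muscle markers that was called; Sparc differed by 0.52 (adjusted p = 0.63) and Dcn by 0.93 (adjusted p = 0.43).

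The 15 largest rises and 15 largest falls described here were taken among called genes with an established symbol whose mean in the higher group exceeded the median of all genes tested. After Bex1, Fstl1 and Arnt2 came Ptgir, the prostacyclin receptor (difference 2.60, SE 0.37), Igha, the constant region of the IgA heavy chain (2.54, SE 0.57), the fatty acid hydroxylase Cyp4a12a (2.50, SE 0.48) and the secreted leucine-rich glycoprotein Lrg1 (2.50, SE 0.57). The calcium-binding protein S100a8, the actin-binding protein Cald1, the lymphocyte membrane protein Ms4a4b, the retinol carrier Rbp4, the heparan sulfate-cleaving enzyme Hpse, the transcription factor Myrf, the protein kinase C substrate Marcks and Mfge8, which bridges phagocytes to dying cells, made up the rest of the 15 largest rises, with differences from 2.39 for S100a8 to 2.13 for Mfge8. The groups did not overlap for 13 of these 15, which were picked for their size, and for 453 of all 649 called genes. Lrg1 and Myrf overlapped through control 36, where Lrg1 stood at 11.77 against 7.27 to 9.04 in the other controls. Lrg1 lost its call without control 33 (adjusted p = 0.065) or control 35 (0.096). Ms4a4b was not called without urethane 32 (0.052), 34 (0.055) or 35 (0.061) or without control 35 (0.11). Myrf was the least stable of the 15, with an adjusted p of 0.051 to 0.18 when urethane 31, 32, 34 or 35 or control 33, 35 or 37 was left out. The 7 probe sets of Marcks differed by 0.39 to 2.44.

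Nt5e (CD73), the surface enzyme that makes adenosine from AMP, had the largest fall and the smallest p. It had 7.81, 8.32 and 8.73 (lowest, median, highest) in urethane arrays, against 11.93, 11.98, 11.10 and 10.88 in controls 33, 35, 36 and 37. Every urethane array lay below every control, and the difference was -3.18 (SE 0.23, limma adjusted p = 4.2e-06). Acaa1b, a peroxisomal thiolase of fatty acid oxidation, had 9.68, 10.08 and 10.57 in urethane arrays, against 13.23, 13.24, 11.35 and 13.21 in controls 33, 35, 36 and 37. Here controls 33, 35 and 37 were nearly equal and control 36 lay between the groups, and the difference was -2.68 (SE 0.30, adjusted p = 0.00011) or -3.15 without control 36. Tnfsf13b, the B cell survival factor BAFF, had 7.46, 7.88 and 8.41 in urethane arrays, against 10.91, 10.46, 9.97 and 9.71 in controls 33, 35, 36 and 37. It fell by 2.35 (SE 0.25, adjusted p = 8.5e-05), while its 2 probe sets gave -2.35 and -0.75.

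The other large falls were of genes with varied roles. Cidec, which enlarges lipid droplets, fell by 2.22 (SE 0.25), the fractalkine receptor Cx3cr1 by 2.38 (SE 0.46), the epithelial adhesion molecule Epcam by 2.19 (SE 0.21), and Patj, a scaffold of tight junctions, by 1.98 (SE 0.27). Bpifa1, secreted by upper airway epithelium, fell by 1.97 (SE 0.21), the tubulin-binding protein Tppp3 by 1.90 (SE 0.20), the nuclear envelope protein Syne2 by 1.84 (SE 0.22), the scaffold protein Iqgap2 by 1.75 (SE 0.22) and the club cell cytochrome Cyp2f2 by 1.73 (SE 0.28). Pmepa1, Trp53i11 and the liver-type fatty acid carrier Fabp1 closed the list of the 15 largest falls at -1.60, -1.54 and -1.51. The groups did not overlap for 13 of these 15, beside 453 of all 649 called genes. The exceptions were Cx3cr1, at 7.63 in control 37 and 9.42 to 10.36 in the other controls, and Trp53i11. Cx3cr1 lost its call without control 35 (adjusted p = 0.051), and Trp53i11 without control 33 (0.060) or control 35 (0.061). The 3 probe sets of Pmepa1 ran from -1.60 to 0.51. The 2 probe sets of Syne2 gave -1.84 and -0.20, and the call was lost with their mean (adjusted p = 0.061).

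**Figure D2:**
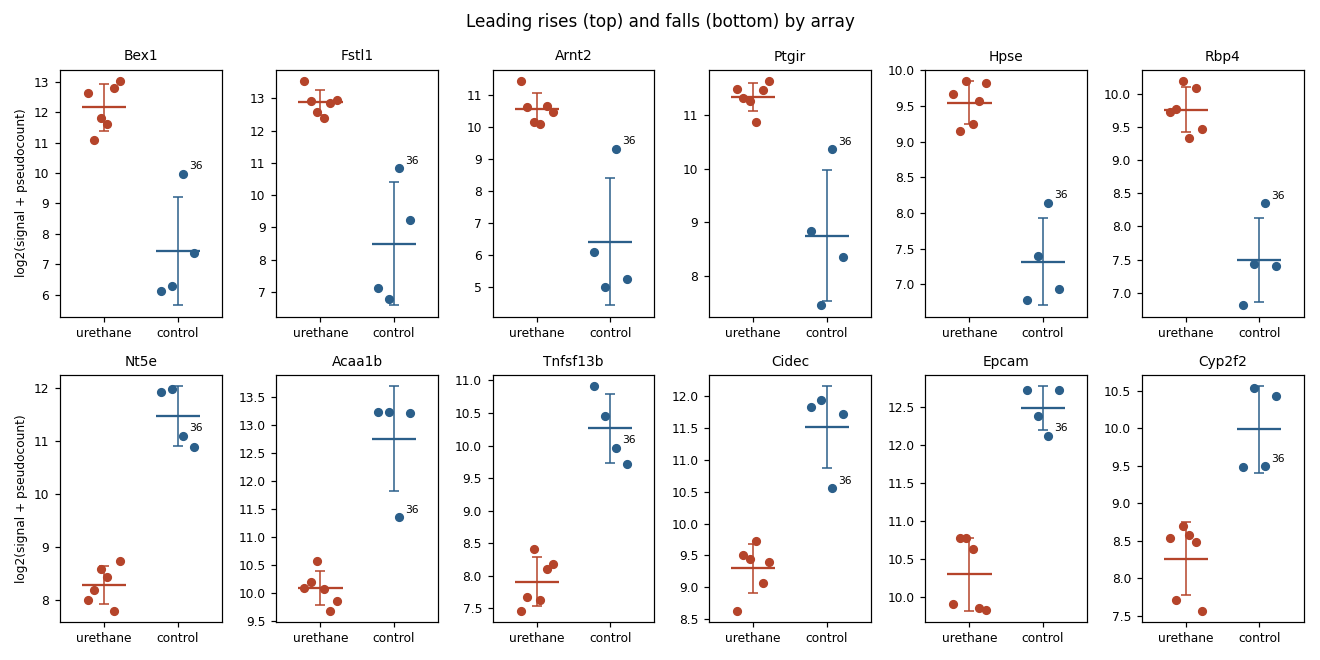
Log2 signal by array for 12 of the leading genes, 6 urethane arrays at the left of each panel and 4 control arrays at the right; points are arrays, horizontal lines group means, bars 1 SD, and "36" marks control 36. No urethane array overlaps a control in these panels, and control 36 is the control nearest the urethane arrays for Bex1, Fstl1, Arnt2, Ptgir, Hpse, Rbp4, Acaa1b, Cidec and Epcam.

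Genes of cholesterol synthesis formed the most uniform group of rises. The pathway builds cholesterol from acetyl-CoA through mevalonate, farnesyl diphosphate, squalene and lanosterol, and most of its genes are switched on by the factor SREBP2 when sterol in the endoplasmic reticulum runs low. Of 20 members tested 11 were called higher and 0 lower, against 2.41% of all genes called higher, and all 20 differences were positive, with a median of 0.79 against 0.02 over all genes. Upstream sequence was read for these genes: of the 20, 16 had a promoter in the RefSeq table (build GRCm38.p6), and the 250 bases before the start were searched on both strands for TCACNNNAC, a loose form of the sterol response element bound by SREBP, and for CCAAT, the core bound by NF-Y, its usual partner. The motifs were searched with the results known, and a match is a run of letters and not a shown site. CCAAT was present in 15 of the 16 (93.8%), against 33.8% of all 32851 promoters, TCACNNNAC in 6 (37.5%) against 9.44%, and both in 6 (37.5%) against 3.15%. The stretches with both are shown because they hold 4 of the 11 called genes (Hsd17b7, Insig1, Msmo1 and Nsdhl) beside Hmgcs1 and Dhcr7, with matches in capitals; in Dhcr7 and Msmo1 the 2 matches overlap.
Hmgcs1 chr13:119690165-119690232, + strand: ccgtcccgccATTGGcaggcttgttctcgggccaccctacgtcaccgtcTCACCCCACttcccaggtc
Hsd17b7 chr1:169969264-169969332, - strand: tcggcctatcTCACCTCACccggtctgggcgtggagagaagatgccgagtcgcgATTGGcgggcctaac
Insig1 chr5:28071186-28071230, + strand: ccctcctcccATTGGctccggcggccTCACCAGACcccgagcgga
Msmo1 chr8:64733652-64733684, - strand: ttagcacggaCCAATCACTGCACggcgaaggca
Dhcr7 chr7:143830119-143830151, + strand: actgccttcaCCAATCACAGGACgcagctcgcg
Nsdhl chrX:72918306-72918426, + strand: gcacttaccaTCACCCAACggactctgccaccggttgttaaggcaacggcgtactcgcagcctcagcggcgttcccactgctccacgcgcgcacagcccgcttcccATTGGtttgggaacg

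Along the pathway Hmgcs1, the HMG-CoA synthase, differed by 0.77 (SE 0.22, limma adjusted p = 0.053), and the mevalonate kinase steps by 0.05 for Mvk and 0.26 for Pmvk, none of them called. From isopentenyl diphosphate onward most genes were called. Idi1, the isomerase of isopentenyl diphosphate, had 11.37, 11.85 and 12.11 (lowest, median, highest) in urethane arrays, against 9.87, 9.57, 11.01 and 10.74 in controls 33, 35, 36 and 37, and rose by 1.47 (SE 0.24, adjusted p = 0.0020). No array of 1 group overlapped the other. Farnesyl diphosphate synthase Fdps rose by 1.06, squalene synthase Fdft1 by 1.22, and squalene epoxidase Sqle by 1.35. Lss, which closes squalene into lanosterol, differed by 0.81 and was not called (adjusted p = 0.053). Cyp51, the lanosterol demethylase, had 10.46, 10.66 and 10.85 in urethane arrays, against 8.96, 8.37, 9.86 and 9.60 in controls 33, 35, 36 and 37, a rise of 1.47 (SE 0.22, adjusted p = 0.0012). Msmo1 (1.06), Nsdhl (0.56) and Hsd17b7 (1.08), which remove the methyl groups after Cyp51, and Sc5d (1.2), a late desaturase, were also called, whereas Dhcr7, the last step, differed by 0.42 (adjusted p = 0.11). Insig1, the sterol sensor that retains SREBP in the endoplasmic reticulum, rose by 1.02, and the sterol carrier Stard4 rose by 0.74. Srebf2, the gene of SREBP2, differed by 0.23 (adjusted p = 0.40). The mean log2 signal of the list was 10.57 to 11.25 over the urethane arrays, against 9.95, 9.77, 10.69 and 9.997 in controls 33, 35, 36 and 37, so the groups overlapped through control 36 alone. The count of calls was 7 without control 33 and 6 without control 35, and 15 without control 36. Sqle, Fdft1 and Hsd17b7 lost their calls without control 33 or 35 (0.054 to 0.12), Fdps without control 35 (0.053), and Nsdhl without any 1 of 7 arrays (0.058 to 0.22).

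**Figure D3:**
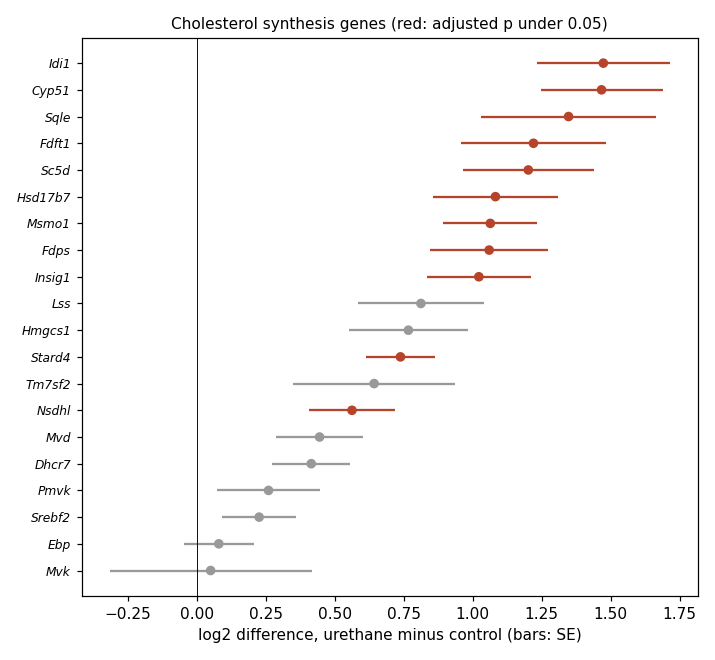
Log2 difference, urethane minus control (x axis, bars are the SE), of the 20 tested cholesterol synthesis genes; red marks the 11 with an adjusted p under 0.05. All 20 points lie right of 0, from 0.05 for Mvk to 1.47 for Idi1 and Cyp51.

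Other lipid genes split in direction. Of 24 genes of lipid uptake, storage and efflux 4 were called higher and 4 lower, against 2.41% and 2.48% of all genes. The fatty acid carrier Fabp4 had 13.94, 14.19 and 14.64 in urethane arrays, against 12.81, 12.98, 13.06 and 12.91 in controls 33, 35, 36 and 37, a rise of 1.29 (SE 0.14, limma adjusted p = 9.5e-05). Here control 36 lay with the other controls. Fabp5 rose by 0.85, the monoglyceride lipase Mgll by 0.96 and the scavenger receptor Msr1 by 0.67. The 4 rises became 2 without control 33 or 35: Fabp5 lost its call there (0.057 and 0.059), and Msr1 lost it without any 1 of 8 arrays (0.059 to 0.20). Fabp1 had 12.36, 12.46 and 12.84 in urethane arrays, against 14.27, 14.43, 13.36 and 14.09 in controls 33, 35, 36 and 37, so that Fabp4 and Fabp5 rose and Fabp1 fell. The cholesterol exporter Abca1 fell by 0.89 and Mylip, which degrades the LDL receptor, by 1.25; both are known targets of the oxysterol receptor LXR. Of 23 peroxisome and fatty acid oxidation genes 0 were called higher and 3 lower (Acaa1b, Cpt1a at -0.64 and Acadm at -0.51), with a list median of -0.26; Acadm lost its call without control 33 or 35 (0.054 to 0.058). For Cpt1a, the mitochondrial carnitine transferase, the 3 probe sets ran from -0.64 to 0.46. Of 16 fatty acid synthesis genes Acsl3 (1.43) and Fads1 (0.62) were called higher and the elongase Elovl5 (-0.62) lower; the call of Acsl3 was lost when 1 of urethane 32 to 36 or control 33 or 35 was left out (adjusted p 0.050 to 0.13), and that of Fads1 when any array but urethane 32 or control 36 was (0.051 to 0.14).

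Of 27 lysosomal genes 6 were called higher and 0 lower, against 2.41% and 2.48% of all genes. The 6 were the proteases Ctsl (0.94) and Lgmn (0.79), the glycosidases Gla (0.68) and Gaa (0.57), the membrane glycoprotein Gpnmb (1.41) and Tfeb (0.68), a transcription factor of lysosomal genes. Gpnmb had 14.23, 14.45 and 14.93 in urethane arrays, against 12.48, 12.73, 13.73 and 13.40 in controls 33, 35, 36 and 37, with no overlap (SE 0.21, limma adjusted p = 0.00094). The list as a whole had a median of only 0.08, and abundant members such as Lamp1 (0.08) and Cd68 (-0.10) were not called. Ctsl lost its call without control 35 (adjusted p = 0.051), Tfeb without control 33 (0.077) and Gaa without control 33 or control 35 (0.065 to 0.084).

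Lymphocyte markers were higher in urethane arrays in part. Of 17 T cell markers tested 6 were called higher (Cd3d, Cd3g, Lat, Il7r, Thy1 and Ms4a4b) and 1 lower, the adhesion receptor Cd2, and the median was 0.99. Over all genes 2.41% were called higher and 2.48% lower. Cd3d, which signals for the T cell receptor, had 8.53, 8.75 and 9.20 in urethane arrays, against 6.40, 5.90, 8.61 and 6.08 in controls 33, 35, 36 and 37, a difference of 2.06 (SE 0.41, limma adjusted p = 0.0085) in which control 36 overlapped the urethane arrays. Il7r, the receptor for IL-7, rose by 1.33 (SE 0.22) without overlap. Cd2 went the other way, with 11.59, 11.90 and 12.52 in urethane arrays, against 13.64, 13.49, 13.15 and 12.90 in controls 33, 35, 36 and 37, and fell by 1.33 (SE 0.18, adjusted p = 0.00050). Because of Cd2 the summed signal of the list, 10536 to 13553 in urethane arrays and 9651 to 16325 in controls, did not follow its median. The mean log2 signal was 8.34 to 8.91 in urethane arrays, against 7.88, 7.15, 8.38 and 7.09 in controls 33, 35, 36 and 37, and 8 members were called higher without control 36. The 6 rises became 4 without urethane 32, urethane 34 or control 33, 3 without urethane 35 and 2 without control 35. Lat lost its call without any 1 of 6 arrays (0.050 to 0.17), Cd3g without any 1 of 4 (0.052 to 0.12), and Thy1 without control 35 (0.053). Of 13 B and plasma cell markers 1 was called, Jchain, the joining chain of secreted IgA and IgM, which rose by 1.59 (SE 0.29, adjusted p = 0.0045) beside Igha, while Ighm differed by 0.14 (adjusted p = 0.87). Of 9 NK and cytotoxic markers limma called 0, with 3 at an unadjusted p under 0.05 and Ccl5 of smallest p (difference 1.12, adjusted p = 0.10); without control 36 Ccl5 was called (1.5, adjusted p = 0.014).

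Neutrophil and monocyte markers gave no uniform direction. Of 15 neutrophil markers S100a8 and Wfdc17 were called higher and the G-CSF receptor Csf3r lower, where 2.41% and 2.48% of all genes were. S100a8, a subunit of calprotectin, had 12.93, 13.33 and 14.76 (lowest, median, highest) in urethane arrays, against 10.55, 10.48, 12.48 and 10.76 in controls 33, 35, 36 and 37, a difference of 2.39 (SE 0.37, limma adjusted p = 0.0013). Its partner S100a9 had 9.03, 9.42 and 14.40 in urethane arrays, against 7.49, 7.39, 10.71 and 6.73 in controls 33, 35, 36 and 37; the value of 14.40 was that of urethane 34, and the difference of 2.33 (SE 0.92) was not called (adjusted p = 0.18). Without control 36 it was called (3.21, adjusted p = 0.041). The summed signal of the list was 47778 to 112870 in urethane arrays and 16997 to 61151 in controls, and the part of neutrophil RNA in the rise of S100a8 was not tested. Without control 36, 4 neutrophil markers were higher and 2 lower. Wfdc17 lost its call without control 33 (0.057) or 35 (0.080), and Csf3r lost it without any 1 of 7 arrays (0.051 to 0.19). Of 14 markers of monocytes and interstitial macrophages F13a1 (1.6), the folate receptor Folr2 (1.25) and the transcription factor Maf (1.40) were called higher, and Cx3cr1 lower. Without control 37, 6 members of this list were lower. The 3 rises became 1 without control 33 or 35: F13a1 lost its call without those or urethane 34 or 35 (0.052 to 0.095), and Folr2 without control 33 or 35 (0.058 to 0.065). The 6 probe sets of Maf ran from -0.34 to 1.40. Of 13 general macrophage markers Cd14 (-0.42) and the high-affinity IgG receptor Fcgr1 (-0.76) were called, both lower; Cd14 lost its call without urethane 33, 34 or 35 or control 33, 35 or 36 (0.051 to 0.13), and Fcgr1 without urethane 35 or control 33 or 35 (0.064 to 0.14) and with the mean of its 2 probe sets (0.058). Of the 20 alveolar macrophage markers Fabp4 and Fabp5 were higher, and Fabp1, Cidec and the keratin Krt79 (-0.75) lower. Siglecf (-0.43, adjusted p = 0.14), Pparg (-0.14, 0.62), Marco (0.02, 0.97) and Itgax (0.06, 0.86) were not called, though Siglecf passed without urethane 31 (0.023). Eosinophil, basophil and mast cell markers were mostly below the filter, with 3 of 14 tested.

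Markers of airway lining were lower in urethane arrays. Of 16 airway epithelial markers 5 were called lower and 0 higher, against 2.48% of all genes called lower, with a median of -0.78. Bpifa1 had 10.56, 10.66 and 11.37 in urethane arrays, against 12.36, 12.93, 12.37 and 13.52 in controls 33, 35, 36 and 37 (difference -1.97, SE 0.21, limma adjusted p = 9.5e-05), without overlap. Cyp2f2 had 7.57, 8.51 and 8.70 in urethane arrays, against 9.48, 10.53, 9.49 and 10.44 in controls 33, 35, 36 and 37, also without overlap. Tppp3, the retinal dehydrogenase Aldh1a1 (-1.50) and the carbonyl reductase Cbr2 (-1.13) were the other 3. The club cell secretory proteins Scgb1a1 (-1.04, adjusted p = 0.13) and Scgb3a2 (-1.31, adjusted p = 0.086) were not called, and Foxj1, the regulator of cilia, differed by 0.20 (adjusted p = 0.89). The summed signal of the list was 7558 to 14546 in urethane arrays and 18311 to 42828 in controls, 2 ranges that did not meet. The count was 3 without control 35 and 4 to 7 without any other array; Aldh1a1 lost its call without control 35 or 37 (0.057 to 0.13), and Cbr2 without control 35 (0.053). Among 16 general and type 1 epithelial markers Epcam, Krt19 (-0.90), Cav1 (-1.19) and Hopx (-0.61) were lower, but Krt8 (0.57, adjusted p = 0.24), Krt18 (0.07, 0.92) and Cdh1 (-0.17, 0.80) were not called, and Hopx lost its call without any 1 of 5 arrays (0.053 to 0.15). Epcam had 9.83, 10.27 and 10.78 in urethane arrays, against 12.72, 12.39, 12.13 and 12.72 in controls 33, 35, 36 and 37; its 2 probe sets gave -2.19 and -0.52. Surfactant and type 2 cell markers did not move with them: of 12 only Napsa was called (-1.33), and Sftpc differed by 0.52 (adjusted p = 0.33). Whether the fall of Epcam, Patj, Bpifa1 and Cyp2f2 came with fewer airway cells in the lavage was not tested.

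Genes of the cell cycle were lower in urethane arrays. Of 37 tested 9 were called lower (Mki67, Top2a, Ccna2, Ccnb2, Nusap1, Ube2c, Mcm2, Mcm7 and Tk1) and 0 higher, against 2.48% of all genes called lower. The median was -0.48, and 35 of the 37 differences were negative. Top2a, the DNA topoisomerase of dividing cells, had 9.39, 9.61 and 9.76 in urethane arrays, against 10.39, 10.23, 10.22 and 10.35 in controls 33, 35, 36 and 37 (difference -0.70, SE 0.13, limma adjusted p = 0.0041). Mki67, the Ki-67 antigen, fell by 0.59 (SE 0.15), the mitotic cyclin Ccnb2 by 0.90 (SE 0.18) and the replicative helicase subunit Mcm7 by 0.76 (SE 0.14). No array overlapped for Top2a, Mki67, Ccnb2 or Mcm7, and control 36 did not stand with the urethane arrays here. The list mean was 8.86 to 9.15 in urethane arrays, against 9.50, 9.56, 9.35 and 9.42 in controls 33, 35, 36 and 37. The count was 3 without control 33 or control 35, 5 without urethane 35 and 7 to 11 without any other array. Ccnb2 lost its call without control 33 (adjusted p = 0.051) and Mcm2 without control 35 (0.098) or with the mean of its 2 probe sets (-0.43, 0.22). Mki67, Nusap1, Tk1, Ube2c and Ccna2 lost theirs without any 1 of 5, 8, 7, 4 and 2 arrays (0.051 to 0.19), while Top2a and Mcm7 kept theirs without each of the 10.

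**Figure D4:**
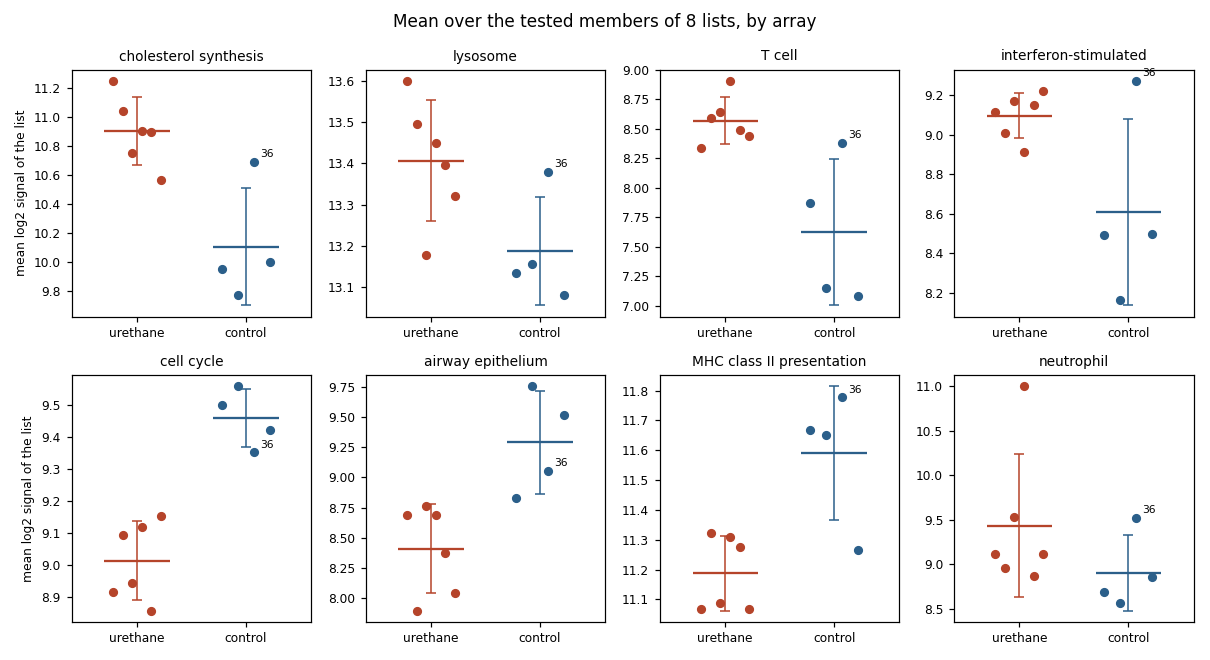
Mean log2 signal over the tested members of 8 lists by array, 6 urethane arrays at the left of each panel and 4 control arrays at the right; lines are group means, bars 1 SD, and "36" marks control 36. The groups separate for the cell cycle and airway epithelium lists, whereas control 36 lies among or above the urethane arrays for T cell and interferon-stimulated genes.

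Stress and DNA damage genes moved in both directions. Of 24 p53 targets and damage genes Ccng1 (0.72), Phlda3 (1.17), Trp53inp1 (0.78) and Sesn1 (0.93) were called higher, and Btg2 (-0.55) and the nucleotide excision repair factor Xpc (-0.66) lower. The shares over all genes were 2.41% higher and 2.48% lower. Phlda3, a p53-induced inhibitor of Akt, had 11.34, 11.58 and 11.84 in urethane arrays, against 10.15, 10.34, 11.09 and 9.97 in controls 33, 35, 36 and 37 (SE 0.18, limma adjusted p = 0.0013). Without control 36 the list had 7 rises and 3 falls, whereas 1 rise was left without control 33, control 35, urethane 34 or urethane 35 and 2 without urethane 32. Sesn1 and Btg2 lost their calls without single arrays, Sesn1 in 5 cases (0.051 to 0.13) and Btg2 in 4 (0.052 to 0.13), as did Ccng1 in 6 (0.056 to 0.18) and Trp53inp1 in 5 (0.051 to 0.14). The metal-binding metallothioneins Mt1 and Mt2 fell by 0.84 (SE 0.17, not called without control 35, 0.055) and 1.46 (SE 0.29), and Gclm, which limits glutathione synthesis, by 0.88 (SE 0.15). Gpx3, the secreted glutathione peroxidase, had 9.15, 9.85 and 10.61 in urethane arrays, against 7.85, 7.28, 8.88 and 7.30 in controls 33, 35, 36 and 37, a rise of 1.98 (SE 0.31, adjusted p = 0.0015). Asns, the asparagine synthetase induced by amino acid shortage, fell by 1.43 (SE 0.21), and Atf4, its activator, by 0.42, but the call of Atf4 was lost without any 1 of 8 arrays (0.059 to 0.18). Of 21 immediate early genes Jun rose (0.93, SE 0.16), while Fos (-0.66), Egr1 (-0.83) and Ier2 (-0.61) fell; the 3 falls became 1 without control 33 or 35, where Egr1 (0.083 and 0.061) and Ier2 (0.095 to 0.098) lost their calls. Epas1 (HIF-2 alpha) had 12.60, 12.65 and 13.24 in urethane arrays, against 10.93, 11.22, 12.19 and 10.72 in controls 33, 35, 36 and 37, a rise of 1.49 (SE 0.22, adjusted p = 0.0010). Of 24 glycolysis and hypoxia genes Hk2 (0.55) was also higher, and Ndrg1 (-1.09) and Pfkp (-0.65) were lower; Pfkp lost its call without control 33 (0.074) or 35 (0.072), and Hk2 without any array but control 36 (0.057 to 0.18).

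Most receptors and mediators of inflammation changed one by one rather than as lists. The MHC class II list had a median of -0.37, but its groups overlapped. Its mean log2 signal was 11.07 to 11.32 in urethane arrays, against 11.67, 11.65, 11.78 and 11.26 in controls 33, 35, 36 and 37. Of 25 Fc, lectin and Toll-like receptors Fcgr4, an activating IgG receptor (1.01, SE 0.13), Tlr1 (2.14, SE 0.45) and Tlr13 (0.93, SE 0.12) were higher, and Clec4e (Mincle) fell by 1.17 (SE 0.17) beside Fcgr1 and Cd14. Of all genes 2.41% were called higher and 2.48% lower. Tlr1 lost its call without control 35 (limma adjusted p = 0.055). The chemokine Ccl9 had 12.95, 13.16 and 13.43 in urethane arrays, against 12.16, 11.39, 11.90 and 11.39 in controls 33, 35, 36 and 37 (difference 1.45, SE 0.16, adjusted p = 9.5e-05). Ccl3 (0.82) and Ccl8 (1.68) were also higher, but Ccl8 lost its call without urethane 35 (0.052), control 33 (0.093) or control 35 (0.064), and Ccl3 without control 35 (0.12). Fractalkine, Cx3cl1, fell by 1.05 (SE 0.25) together with its receptor Cx3cr1, but lost its call without urethane 35 (0.050), control 33 (0.13) or control 35 (0.083). The complement receptor C5ar1 fell by 1.34 (SE 0.19) and the leukotriene enzyme Alox5 by 0.96 (SE 0.16). Tgfbi, a matrix protein induced by TGF-beta, had 12.01, 12.53 and 13.06 in urethane arrays, against 14.10, 13.97, 14.05 and 13.54 in controls 33, 35, 36 and 37, a fall of 1.38 (SE 0.17, adjusted p = 0.00024). Igf1 rose by 1.66 (SE 0.37, adjusted p = 0.016), with 8.75 in control 37 and 10.38 to 11.37 in the other controls, and lost its call without control 35 (0.064). Il1rn, the IL-1 receptor antagonist, fell by 0.68 (SE 0.11). Of 12 MHC class II presentation genes the peptide-loading chains H2-DMa (-0.84, SE 0.15) and H2-DMb2 (-0.80, SE 0.17) were lower and 11 differences were negative; H2-DMb2 lost its call without control 33 (0.058), and 5 members were lower without control 37. The 2 probe sets of H2-DMa gave -0.84 and -0.04, and the call was lost with their mean (-0.44, adjusted p = 0.091).

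Of 30 interferon-stimulated genes only the GTPase Ifi47 was called (0.60, SE 0.16, limma adjusted p = 0.037), although 27 differences were positive and the median was 0.46. That is 3.33% of the list, near the 2.41% of all genes called higher. The list mean was 8.91 to 9.22 in urethane arrays, against 8.49, 8.16, 9.27 and 8.50 in controls 33, 35, 36 and 37, so that control 36 lay above every urethane array. Without control 36, 8 members were called higher and 1 lower, with a median of 0.67. Ifi47 lost its call without urethane 31, 32, 33 or 35 or control 33, 35 or 37 (0.055 to 0.18). Of 23 oxidative phosphorylation, 12 MHC class I, 17 classical activation and 17 circadian clock genes limma called 0 in each list, where an unadjusted p under 0.05 was met by 2, 2, 3 and 5 members. The members of smallest p were Uqcrc2 (-0.41, adjusted p = 0.13), Erap1 (0.42, 0.055), Gpr18 (-0.58, 0.091) and Nfil3 (-0.67, 0.14). When single arrays were left out, some of these passed: Uqcrc2 passed without urethane 31 (0.050) or control 36 (0.038), Erap1 without control 37 (0.018) and Nfil3 without urethane 34 (0.024). The sex-linked genes Uty, Eif2s3y, Kdm5d and Xist did not differ past the threshold (adjusted p 0.48 to 0.97).

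The same contrast in the 7 arrays numbered below 31, which share no control with the 10, called 988 genes (7.45%). Of these 194 were also called, with the same sign, at 31 and up, which is 29.9% of the 649 and 19.6% of the 988, and 137 of the shared genes were higher and 57 lower in urethane arrays. Over all 13264 genes the differences of the 2 ranges correlated at only 0.04. Below 31 the 20th percentile signal was 9.49 to 13.4 on urethane arrays and 15.7 and 27.9 on the controls. At 31 and up it was instead highest on 3 urethane arrays. There the main axis of spread among the 10 arrays (first principal component) correlated at 0.98 with its log2 value. The part of this signal level in the low correlation of the ranges was not tested. Of the 649 called genes 527 had the same sign below 31, and 368 had a difference more than 2 times as large at 31 and up. Among the 15 largest rises all 15 had the same sign below 31 and 13 were called there. Bex1 differed by 2.45 below 31 (limma adjusted p = 0.0053) and Fstl1 by 3.62 (5.6e-05), while Igha (1.2, 0.18) and Cald1 (1.04, 0.19) were not called. Among the 15 largest falls 14 had the same sign and 10 were called; Nt5e differed by -1.29 below 31 (0.024), whereas Cx3cr1 (-0.24, 0.64) and Pmepa1 (0.08, 0.91) showed almost no difference there. The fall of the cell cycle list was -0.48 at 31 and up and -0.25 below 31 by its median, and its named members Top2a (-0.23, 0.27) and Mki67 (-0.27, 0.16) were not called below 31. The cholesterol median was 0.79 at 31 and up and 0.74 below 31. T cell (0.99 and 0.74) and airway epithelium (-0.78 and -0.99) medians also kept their sign. Other list medians changed sign, such as MHC class II (-0.37 at 31 and up, 0.11 below 31) and peroxisome and fatty acid oxidation (-0.26 and 0.09). So did those of monocytes and interstitial macrophages (-0.34 and 0.48) and of B and plasma cells (0.59 and -0.17). Tested directly as an interaction over all 17 arrays, 2299 genes had an unadjusted p under 0.05 (limma). After adjustment the difference changed between number ranges for 11 genes (0.0829%), 4 of them also called at 31 and up, and for 0 of the 30 genes with the largest rises and falls. With 2 controls below 31, a gene that was not called may still differ between the ranges. The 8 of the 11 genes named by smallest p were Clk4, Fam136a, Slc6a4, Hsp90aa1, Eng, Acvrl1, Fcgr2b and Kctd20, all with a lower difference at 31 and up. Eng (endoglin) and Acvrl1, which form a receptor complex for BMP9, differed by -0.85 and -0.61 at 31 and up and by 1.80 and 0.86 below 31. The inhibitory IgG receptor Fcgr2b differed by -0.39 at 31 and up and by 1.37 below 31. The count of 11 genes hung on single arrays: it was 654 without control 37, 87 without urethane 31, 23 without urethane 32, 4 without urethane 34, 8 without urethane 9, 14 without control 6 and 0 without any 1 of the other 11 arrays.

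**Figure D5:**
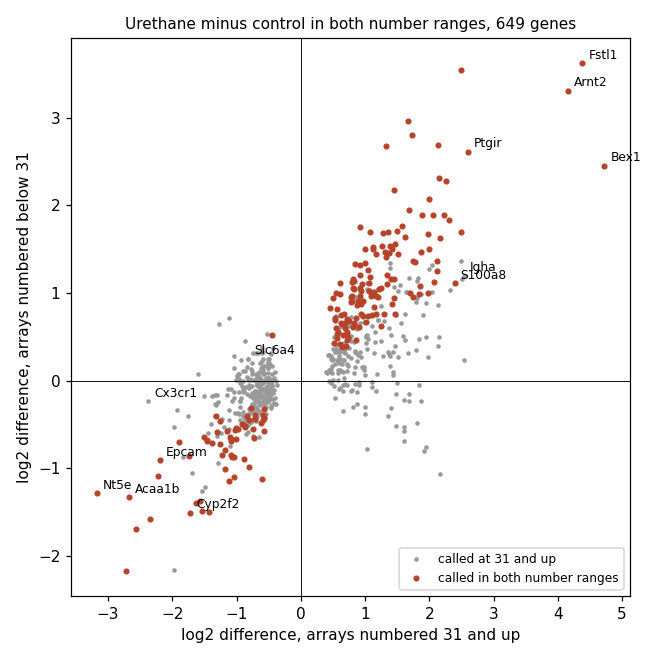
Log2 difference, urethane minus control, below 31 (y axis) against 31 and up (x axis) for the 649 genes called at 31 and up; red points are genes also called below 31. Fstl1, Arnt2, Bex1 and Ptgir lie far from 0 on both axes, whereas Cx3cr1 lies near 0 below 31.

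Samples of 1 group also differed among themselves, which is given here as a description. Over the urethane arrays the largest SDs were those of S100a9, Fbxo36, Hoxa5, Sema6c, Pik3cd and E2f5, with S100a9 at 2.11 through urethane 34. Over the controls the largest were those of Rnase2a (2.44), Lrg1, Alas2, Apoe, C1qb and Ccl17. Rnase2a, a ribonuclease of the eosinophil-associated family, had 10.46, 10.89 and 11.80 in urethane arrays, against 13.66, 12.17, 11.70 and 7.93 in controls 33, 35, 36 and 37. Apoe, the apolipoprotein made by macrophages, had 11.53, 12.42 and 12.62 in urethane arrays, against 13.46, 13.11, 13.15 and 10.30 in controls 33, 35, 36 and 37, and C1qb, a chain of complement C1q, had 10.10, 10.72 and 11.05 in urethane arrays, against 12.24, 12.01, 11.89 and 9.18 in controls 33, 35, 36 and 37. In all 3 genes control 37 was the lowest of the 10 arrays and the other controls were at or above the urethane median. None was called (limma adjusted p 0.83, 0.81 and 0.49). Without control 37 each was lower in urethane arrays, by 1.54, 1.01 and 1.34 on the log2 scale. The 3 genes were picked for their spread over the controls, so leaving out control 37 is no separate test of them.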

How the data were processed

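Total RNA had been extracted with Trizol, labelled with biotin and hybridised to Affymetrix Mouse430_2 arrays, 1 per sample. The authors deposited a MAS5 signal intensity per probe set, per the submitters' processing notes; the version and any further step are not given in the sources used here. The log2 scale was used after adding 19.2 to each signal, which is the median over the 10 arrays of the 20th percentile signal. Probe sets above the 40th percentile of the array on at least 4 of the 10 arrays were kept, and among probe sets with 1 symbol the one of highest mean was taken for its gene, with symbols from the platform annotation. Groups were compared by the moderated linear model of limma 3.58.1 (R 4.3.3), with a trend of variance on signal, two-sided tests and Benjamini-Hochberg adjusted p-values over all 13264 genes and a threshold of 0.05; the method was tested on simulated data. The change between number ranges was an interaction in a fit of all 17 arrays with 4 groups. The text names the 15 genes that rose and the 15 that fell most (mean in the higher group above the overall median), from each list at most 2 called genes in either direction or, failing that, its member of smallest p, 10 macrophage genes, up to 8 genes changed between ranges, the 6 of largest SD in each group, and the sex-linked and clock genes; list members that were called are named besides. The comparison, the 42 gene lists and the rule were chosen with earlier results of these data known. Alternatives covered the scaling, pseudocount, filter, probe set choice, variance model, covariates, blocks and each array left out; 4 that left out several arrays at once were added after seeing the data. The number of arrays limits the precision.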

Additional observations from a re-analysis of the deposited data

Results flagged for a closer look

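Within a group, 14 of 294 sets of values over arrays, 1 set per named gene and group, held 1 array set apart from the others by Dixon's ratio, and 6 of 84 sets of list means did. Chance gives about 1 in 20 for sets not chosen by their values. The named genes were picked from these same values, many for a call or a large SD, so that rate is no yardstick for them. S100a8 was 14.76 on urethane 34 (12.93 to 13.35 on the other urethane arrays) and 12.48 on control 36 (10.48 to 10.76 on the other controls). Control 36 also stood apart for Acaa1b at 11.35 and Cidec at 10.56 (log2 signal), both below the other controls. Control 37 stood apart for Apoe at 10.30, C1qb at 9.18 and Cd68 at 14.68. Among urethane arrays Acsl3 was 8.84 on array 32, Fcgr1 was 10.12 on array 35, Epas1 was 13.24 on array 31 and Aqp1 was 7.66 on array 34. Urethane 33 stood apart for Chil3 at 14.63, Eif2s3y at 9.60 and Hlf at 8.83.

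Of the list means, fatty acid synthesis was 9.14 on control 33, complement 9.49 on urethane 32, oxidative phosphorylation 12.67 on control 37, and the neutrophil markers 10.999 on urethane 34. On urethane 31 the sex-linked list stood at 8.18 and the NK and cytotoxic list at 6.62, both below the other urethane arrays.

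For 8 genes the urethane difference changed between number ranges in limma's interaction test, with an adjusted p of 0.037 for Clk4 and 0.047 for the other 7. The change, 31 and up minus below 31, was -1.21 for Clk4, -0.78 for Hsp90aa1, -0.98 for Fam136a, -1.06 for Slc6a4, -2.65 for Eng, -1.47 for Acvrl1, -1.75 for Fcgr2b and -0.86 for Kctd20. Scan day and chip lot differ between the ranges and cannot be told apart from the number.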

How the results depend on the processing

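Against 649 calls (320 higher, 329 lower), counts within 1.5 times of these came from quantile scaling, both other pseudocounts, all 3 other filters, the mean of probe sets, robust fitting, the 20th percentile or Gapdh ratio as covariate and the fluidics station as a block (756, with 562 of the 649 genes). Calls (higher, lower) numbered 332 (146, 186) with arrays centred on their median, 404 (205, 199) with the probe set of largest variance, 225 (121, 104) without the variance trend, 1406 (659, 747) with array weights, 1107 (639 lower) with all 17 arrays in the fit, and 161 (89, 72) when tested against 1.2-fold. Leaving out the 3 urethane arrays of high 20th percentile, chosen after seeing the data, gave 225 (121, 104), and leaving out control 36 too gave 166 lower. Within station 1, which holds 4 urethane arrays but only control 33, so that the lone control is assumed to vary like the urethane arrays, there were 155 (111, 44), and within station 2 81 (30, 51). Leaving out 1 array gave 233 to 959 calls, 121 to 449 higher and 112 to 510 lower.

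Whether title numbers shared by the groups pair the arrays is not given, and 3 numbers are too few to settle it. The deviations of same-numbered arrays from their group means correlated at -0.008, -0.16 and -0.18 for numbers 33, 35 and 36. The same-numbered array was the best match for number 33 but not for 35 or 36. The fit with the title number as a replicate block rests on those 3 pairs and called 3037 genes (1515, 1522), where Ccl17 turned to -0.73. The 11 genes changed between number ranges became 0 with quantile scaling and 0 with a pseudocount 4 times larger, and 0 to 654 when 1 of the 17 arrays was left out. The choice of probe set turned Hsp90aa1 to 0.10 (mean of probe sets) and 1.05 (largest variance), and under largest variance Pmepa1 to 0.51, Cpt1a to 0.050 and Maf to -0.34; the cause was not tested. Of 96 named genes that were called, 16 passed in each of the 32 settings that tested them. The median difference over all genes was -0.01 with quantile scaling and -0.08 after centring, against 0.02.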

Other observations

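Genes of vessels, matrix and membrane nucleotide signalling were called singly. Over all genes 2.41% were called higher and 2.48% lower. Of 6 endothelial markers tested, Cdh5 (VE-cadherin) had 7.9972, 8.65 and 9.47 (lowest, median, highest log2 signal) in urethane arrays, against 6.40, 6.21, 7.07 and 6.56 in controls 33, 35, 36 and 37, and rose by 2.15 (limma adjusted p = 0.0010). The water channel Aqp1 had 5.76, 6.34 and 7.66 in urethane arrays, against 9.79, 9.79, 8.14 and 8.06 in controls 33, 35, 36 and 37, and fell by 2.56 (adjusted p = 0.0032). Neither overlapped between groups, but only 1 of the 4 controls for Cdh5 and 1 of the 6 urethane arrays for Aqp1 exceeded the 40th percentile, so the sizes are uncertain. Cdh5 passed the filter only with urethane arrays and Aqp1 only with controls, where each was high. Their calls and lack of overlap are thus not separate from the filter. Of 23 matrix and protease genes the gelatinase Mmp2 (1.48) and its inhibitor-family member Timp1 (1.21) were higher, and the matrix protein Hmcn1 (-2.73) was lower beside Tgfbi. Hmcn1 had only 4.68, 5.86 and 6.81 (lowest, median, highest) in urethane arrays, near the low end of the scale. The size of its fall is therefore uncertain too. Mmp2 lost its call without control 33 (adjusted p = 0.055) or 35 (0.051), and Timp1 when 1 of urethane 32 to 36 or control 33 or 35 was left out (0.054 to 0.20). Of 13 dendritic cell markers the maturation antigen Cd83 fell by 1.09 (adjusted p = 0.00081), without overlap.

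Of 15 genes of adenosine and ATP handling the ATP-gated channel P2rx4 (0.80) and the UDP-sugar receptor P2ry14 (0.46) were higher and Nt5e lower, though the 4 probe sets of P2rx4 ran from -0.03 to 1.49 and P2ry14 was not called without 1 of urethane 32, 34, 35 or 36 or control 33, 35 or 36 (0.061 to 0.16). Of 18 TNF superfamily genes lymphotoxin beta, Ltb, was higher (1.13, not called without control 35, adjusted p = 0.064) and Tnfsf13b lower. Of 14 complement genes the receptor Vsig4 was higher (1.62) and C5ar1 lower; Vsig4 lost its call without urethane 32, 34 or 35 or control 33 or 35 (0.053 to 0.14), and without control 37 the list had 5 falls. The prostacyclin synthase Ptgis and the activin subunit gene Inhba were called higher at limma adjusted p of 0.047 and 0.042, with 0 and 1 of the 4 controls above the 40th percentile of the array. Ptgis thus passed the filter only through urethane arrays, and Inhba only with them. Both were high there, so neither call is separate from the filter. No size is given for either gene. Each lost its call without any 1 of several arrays (8 for Ptgis, 0.052 to 0.16, and 6 for Inhba, 0.072 to 0.15). Of 5 erythroid markers limma called 0, with 1 at an unadjusted p under 0.05.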
